A study of Mus musculus with 4 samples.

Results

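Cd36, Fabp4, Mogat1 and Plin4, genes of fatty acid uptake and lipid droplets, were followed in liver RNA of mice that differ in both cytochrome b5 genes and in feeding state. They were picked by name for their values in the deposited tables, so the levels below describe how they were chosen and are not tests. They are 4 of the 943 genes in the first sheets of the fasted and the refed table. All 4 are in the fasted sheet of 722 genes, and Plin4 alone is also in the refed sheet of 284 genes. The control libraries carry the genotype label WT and the hairpin label shNC. The targeted libraries carry the label L_Cyb5b_shCyb5a, and the design text calls this genotype Liver-Cyb5b_shCyb5a. Each genotype was sampled Fasted and Refed. The promoter or vector behind the liver label and the hairpin, the strain, sex and age of the mice, the hours of fasting and refeeding and any pooling of animals are not stated in the labels. Each of the 4 groups has 1 library, so nothing below has a replicate check, and the range in parentheses after a fold is a 95% counting interval for those libraries only.

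Long-chain fatty acids reach the liver from adipose tissue during a fast. CD36 is a membrane receptor that helps them enter cells, and fatty acid-binding proteins such as FABP4 carry them in the cytosol. MOGAT1 joins an acyl chain to monoacylglycerol to make diacylglycerol, a precursor of triglyceride, and perilipins such as PLIN4 coat the droplets in which triglyceride is kept. Cd36, Fabp4 and Plin4 are known as targets of PPAR gamma, a nuclear receptor of fat cells, and Cd36 and Mogat1 are known to be raised with that receptor in fatty mouse liver. PPAR alpha, its relative in hepatocytes, drives the fasting response. In the deposited annotation, Cd36, Fabp4 and Plin4 stand under the PPAR signaling pathway and Mogat1 under glycerolipid metabolism.

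Because that annotation names a DNA-binding receptor, the 250 bases before a gene start are shown for 3 of the 4 members. These 3 have an entry in the RefSeq promoter table (build GRCm38.p6), with 1 start each. Capitals mark matches to AGGTCA, the hexamer that nuclear receptors bind, to AGGTCANAGGTCA with up to 2 mismatches, the direct repeat that PPAR-RXR pairs bind, and to TATAA and CCAAT, all sought on both strands of the window. Cd36 lies on the minus strand at chr5:17835897-17836146, Mogat1 on the plus strand at chr1:78510810-78511059 and Plin4 on the minus strand at chr17:56109783-56110032.
Cd36: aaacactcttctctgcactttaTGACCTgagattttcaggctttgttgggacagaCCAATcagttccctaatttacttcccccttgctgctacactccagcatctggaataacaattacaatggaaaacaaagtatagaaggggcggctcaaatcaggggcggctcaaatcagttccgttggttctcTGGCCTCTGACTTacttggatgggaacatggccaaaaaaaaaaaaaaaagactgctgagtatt
Mogat1: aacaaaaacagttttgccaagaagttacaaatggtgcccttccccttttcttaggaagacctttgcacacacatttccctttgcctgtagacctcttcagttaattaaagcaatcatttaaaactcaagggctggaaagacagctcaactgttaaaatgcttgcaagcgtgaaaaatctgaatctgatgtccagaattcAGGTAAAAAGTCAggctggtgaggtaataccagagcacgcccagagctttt
Plin4: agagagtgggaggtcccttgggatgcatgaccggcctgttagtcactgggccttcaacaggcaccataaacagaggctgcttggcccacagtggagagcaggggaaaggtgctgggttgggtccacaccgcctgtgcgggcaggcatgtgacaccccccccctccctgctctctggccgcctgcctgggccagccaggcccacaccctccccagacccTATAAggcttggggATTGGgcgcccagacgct
Cd36 and Mogat1 each hold 1 match to the direct repeat with 2 mismatches, at TGGCCTCTGACTT from base -63 to -51 in Cd36, where the motif reads on the strand opposite to the printed one, and at AGGTAAAAAGTCA from base -51 to -39 in Mogat1, on the printed strand. Positions are counted from the 1 start listed for each gene, and other starts were not examined. Of 32841 mouse promoters of the same length, 3.24% hold such a match. Cd36 also holds an exact hexamer, as do 14% of the promoters, and a CCAAT match, as do 33.9%. Plin4 holds a TATAA match from base -32 to -28, as do 22.8%, and a CCAAT match, and neither receptor motif within this window. These are letter matches in the reference and not measured binding. The Cd36 and Mogat1 windows have a GC content of 43.2% and 41.2%, and that of Plin4 65.2%.

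Levels are given in TPM, the share of a library's transcripts after division by transcript length, scaled to a fixed total, and in reads where whole read numbers could be recovered from the deposited ratios and p-values. Reads of the targeted refed library could be recovered for Plin4 only, and for the other members they were estimated from FPKM. The libraries are close in depth, at 1.01 to 1.03 times the reads of the control fasted library by the deposited p-values and about 13400000 to 13800000 reads each by estimate. These totals rest on 24 to 85 genes and place the control refed library slightly below the control fasted one, where the p-values place it slightly above. TPM and FPKM differ between libraries. By median, ratios of TPM are 1.15 times those of FPKM for genotype in the fasted pair, a shift of 0.21 on the log2 scale, and 1.02 times in the refed pair. For refed over fasted they are 0.941 times in control liver and 0.831 times in targeted liver, a shift of -0.27. FPKM folds are therefore given beside TPM folds for the fasted genotype and the feeding ratios of members. The label was checked on the targeted genes. In the fasted pair, control then targeted, Cyb5a had 1686 and 207 TPM and Cyb5b 72.4 and 27.4 TPM. In the refed pair Cyb5a had 1274 and 166 TPM and Cyb5b 174 and 49.5 TPM. None of 14 hepatocyte marker genes is in the sheets, so the tissue label could not be checked on them. Cyp7a1, a hepatocyte enzyme picked after its values were seen, was read in all 4 libraries at 4.16 to 66.9 TPM.

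Cd36 was most abundant in the targeted fasted library and was higher in the targeted library in both feeding states. It had 21.8 TPM in the control fasted, 54.1 TPM in the targeted fasted, 10.2 TPM in the control refed and 15.3 TPM in the targeted refed library, on 677, 1503, 360 and about 537 reads. None of these levels overlaps another in its counting interval. The fasted level was 2.49-fold higher (2.27 to 2.73) in the targeted library by TPM and 2.16-fold higher by FPKM. The refed level was 1.50-fold higher (1.31 to 1.72) by TPM and 1.47-fold by FPKM, and Cd36 is not in the refed sheet, where the authors' ratio is at least 2-fold for every gene. Refeeding went with a 2.13-fold lower level (1.87 to 2.43) between the control libraries, 2.01-fold by FPKM and 1.88-fold in reads. Between the targeted libraries it was 3.53-fold lower (3.20 to 3.91), 2.94-fold by FPKM. The genotype log2 ratio was 1.31 fasted and 0.59 refed, a difference of -0.73 (-0.96 to -0.50).

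Fabp4 was lower in the targeted library in the fasted state, opposite to Cd36, and had no fixed direction across feeding states. It stood at 52.2 TPM in the control fasted, 23.0 TPM in the targeted fasted, 29.3 TPM in the control refed and 36.3 TPM in the targeted refed library, on 250, 96, 149 and about 184 reads. The control fasted library is above the other 3 beyond its counting interval of 46.0 to 59.1 TPM. The intervals of the refed libraries overlap each other, and that of the control refed library, 24.8 to 34.4 TPM, overlaps that of the targeted fasted one, 18.6 to 28.1 TPM. Fabp4 was 2.27-fold lower (1.79 to 2.91) in the targeted fasted library by TPM and 2.62-fold lower by FPKM. In the refed libraries the ratio was 1.24 (0.99 to 1.55), an interval that includes no difference. Refeeding went with a 1.79-fold lower level (1.45 to 2.20) in control and a 1.58-fold higher level (1.23 to 2.04) in targeted liver, 1.68-fold and 1.90-fold by FPKM. The difference of the genotype log2 ratios, refed minus fasted, was 1.49 (1.03 to 1.96), the widest among the 3 members for which it can be given.

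Mogat1 was barely detected, and its place among the most changed genes rests on few reads. It stood at 0 TPM in the control fasted, 1.32 TPM in the targeted fasted, 0.29 TPM in the control refed and 0.78 TPM in the targeted refed library, on 0, 13, 3 and about 8 reads, where 1 read is worth about 0.10 TPM. The targeted library had the larger number in both feeding states, and the 3 libraries with reads overlap in their counting intervals. Against a floor of 3 reads for the library at 0, the fasted level was 4.33-fold higher in reads. This takes the 13 reads as exact, though their counting interval is 6.92 to 22.2, so the fold may be smaller. The authors' deposited table gives 10.34 as its log2 ratio, which is what 13 over 0 reads gives when 0 is entered as 0.01. In the refed libraries the TPM ratio was 2.69 (0.65 to 15.7), so a refed difference was not detectable at this depth. No fold is given for control refed against control fasted liver, since 3 and 0 reads are both within the floor. Of the 50-base stretches of Mogat1 transcripts in GENCODE M21, 9.95% are also found in transcripts of BC035947, a gene on the opposite strand. The labels do not say whether strand was used in counting, so reads of these genes may be mixed.

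Plin4 was far more abundant in the fasted than in the refed libraries and was lower in the targeted library in both feeding states. It stood at 18.1 TPM in the control fasted, 8.02 TPM in the targeted fasted, 0.83 TPM in the control refed and 0.26 TPM in the targeted refed library, on 1305, 509, 65 and 21 reads. The 4 levels do not overlap in their counting intervals. The targeted library was 2.25-fold lower (2.03 to 2.50) in the fasted state by TPM, 2.60-fold by FPKM, and 3.19-fold lower (1.93 to 5.50) in the refed state. Refeeding went with a 21.8-fold lower level (17.0 to 28.4) in control and a 30.8-fold lower level (20.0 to 50.3) in targeted liver, 20.7-fold and 25.4-fold by FPKM. The genotype log2 ratio was -1.17 fasted and -1.67 refed, a difference of -0.50 (-1.23 to 0.22), an interval that includes no difference. Plin4 overlaps Hdgfl2 on the opposite strand in GENCODE M21, but none of its 5100 transcript stretches of 50 bases is shared with another gene's transcripts.

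**Figure D1:**
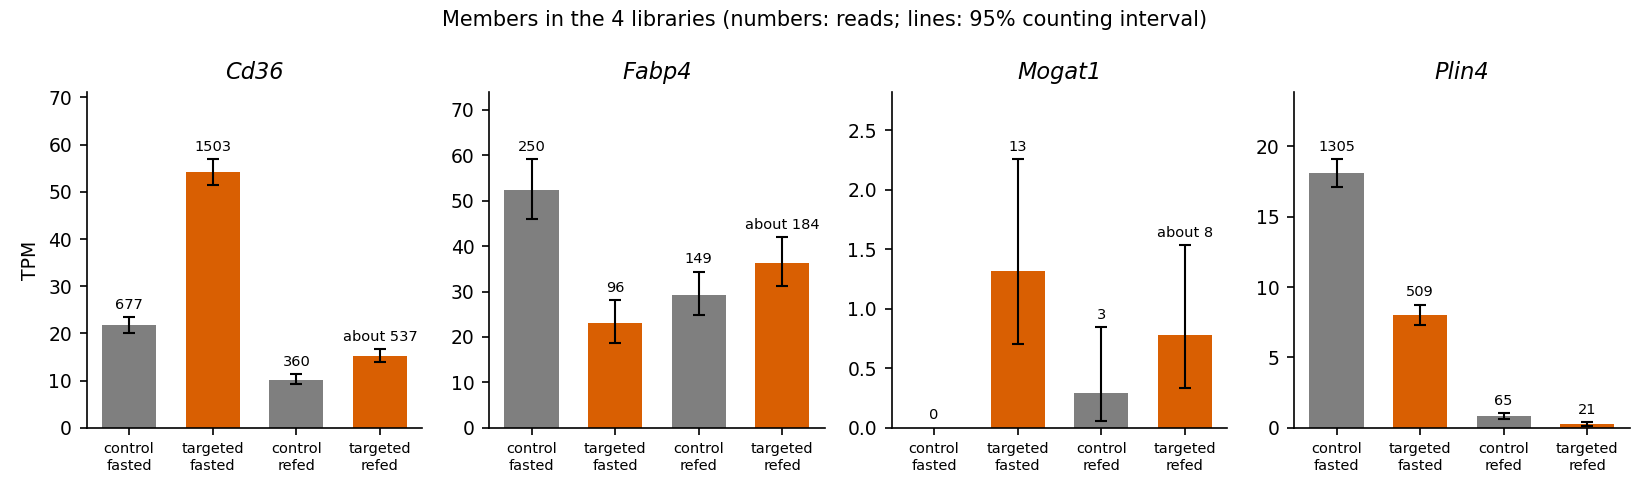
TPM (y axis, linear and separate for each gene) of Cd36, Fabp4, Mogat1 and Plin4 in the 4 libraries, grey for control and orange for targeted. Bars are 1 library each, the black lines are 95% Poisson counting intervals and the numbers are reads, with "about" where estimated. Cd36 peaks at 54.1 TPM in the targeted fasted library, Fabp4 at 52.2 TPM and Plin4 at 18.1 TPM in the control fasted library, and Mogat1 is at 0 there.

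Side by side, the members split by genotype. In the fasted sheet 2 members were higher and 2 lower in the authors' deposited table, where 30.3% of all genes are higher and 69.7% lower, and by a 2-fold limit on TPM 29.6% are higher and 45.6% lower. The refed sheet lists Plin4 alone, as lower, and there 78.2% of all genes are higher and 21.8% lower, or 75.7% and 21.1% by the 2-fold limit on TPM. By level, Cd36 and Mogat1 had their highest TPM in the targeted fasted library, as did 20.5% of the 943 genes, and Fabp4 and Plin4 had theirs in the control fasted library, as did 48%. Plin4 was lower in the targeted library in both states, as were 13% of the 943 genes by TPM. By the sign of the difference in TPM alone, Cd36 and Mogat1 were higher in both states, as were 26.5%, and Fabp4 was lower fasted and higher refed, as were 49.3%. The refed intervals of Mogat1 and Fabp4 include no difference. By TPM, at least 2-fold lower levels after refeeding were seen for Cd36 and Plin4 in control liver, against 44.8% of the 943 genes, and for the same 2 members in targeted liver, against 18%. In control liver Cd36 passes that limit by TPM and FPKM but not in reads, nor in the authors' deposited table, where its log2 ratio is -0.91. No member was at least 2-fold higher after refeeding in targeted liver, against 23.3% of the genes, nor, among the 3 members with a fold, in control liver, against 17%. These shares also count genes at 0 TPM in the fasted library, Mogat1 among them in control liver. The members were picked for their deposited values, fasted and refed, so nothing is read from any of these counts.

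The order of the members also changed. By TPM, which is corrected for length, Fabp4 was above Cd36 in 3 libraries, and Cd36 was above Fabp4 in the targeted fasted library at 54.1 against 23.0 TPM. Plin4 came after both, ahead of Mogat1, in 3 libraries. In the targeted refed library Mogat1, at 0.78 TPM, stood above Plin4, at 0.26 TPM, with overlapping counting intervals of 0.34 to 1.54 TPM and 0.16 to 0.40 TPM.

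**Figure D2:**
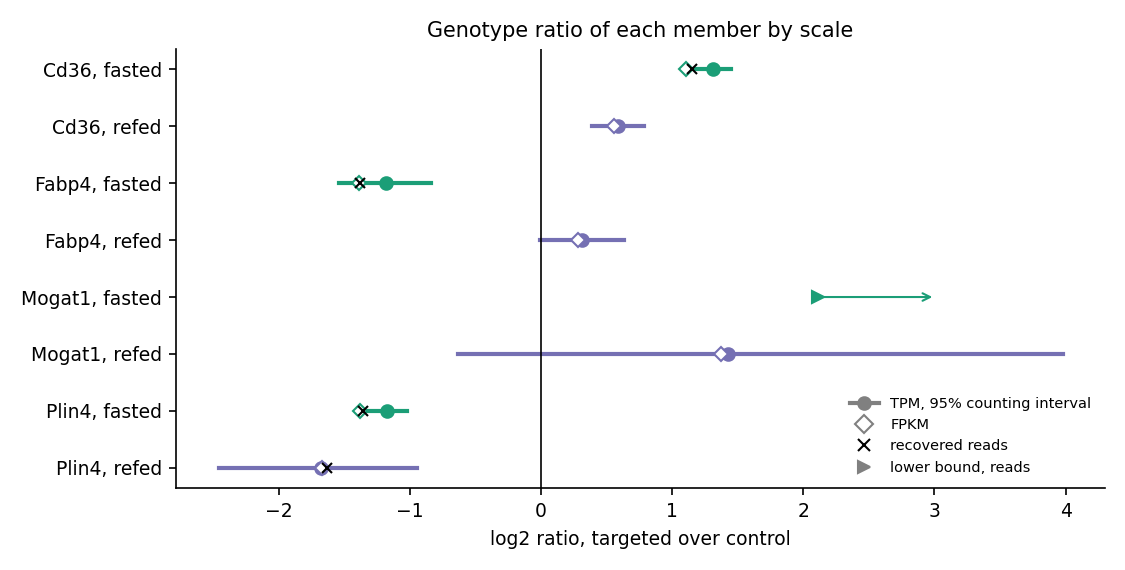
The log2 ratio of targeted over control (x axis) of each member in the fasted (green) and refed (purple) state. Filled circles are TPM with the 95% counting interval, open diamonds FPKM, crosses recovered reads, and the arrow for fasted Mogat1 marks a lower bound. Cd36 lies right of 0 in both states, Plin4 lies left in both, and Fabp4 lies at -1.19 fasted and 0.31 refed.

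Other genes of the same steps were then set beside the members, from lists of uptake, acylglycerol synthesis, droplet coat, lipolysis and PPAR genes with 91 entries in all. In the fasted sheet 10 of the 91 are listed, 3 higher and 7 lower, where 30.3% of all genes are higher and 69.7% lower. Their median log2 ratio in the authors' deposited table was -1.21, beside -1.13 for the whole sheet. The median is the same with Mogat1 at its ratio to the floor of 3 reads. Of the 25 uptake and binding genes, 5 are in the fasted sheet, where Cd36 was higher and 4 were lower. Besides Fabp4 these were Fabp5, another cytosolic fatty acid-binding protein, Cav1, the coat protein of caveolae, and Gpihbp1, which anchors lipoprotein lipase in capillaries. Fasted Fabp5 was 42.6 TPM in control and 11.1 TPM in targeted liver, 3.85-fold lower (3.01 to 4.98), and refed Fabp5 was 1006 TPM in control and 711 TPM in targeted liver. Unlike Fabp4, it was 23.6-fold higher (21.2 to 26.4) in the refed than in the fasted control library. Cav1 was 2.97-fold lower (1.84 to 4.97) and Gpihbp1 1.71-fold lower (1.33 to 2.22) in the targeted fasted library by TPM. By FPKM, fasted Fabp5, Cav1 and Gpihbp1 were 4.44-fold, 3.41-fold and 1.97-fold lower.

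Of the 14 droplet coat and assembly genes, 3 are in the fasted sheet. Fitm2, a protein of the endoplasmic reticulum needed for droplet formation, stood at 21.0 and 48.9 TPM, 2.32-fold higher (2.04 to 2.65) in the targeted library. Hilpda, an inhibitor of the triglyceride lipase ATGL that sits on droplets, stood at 18.7 and 8.55 TPM, 2.19-fold lower (1.63 to 2.97), in the same direction as Plin4. G0s2, another inhibitor of ATGL and the single listed lipolysis gene of the fasted sheet, stood at 470 and 248 TPM, 1.89-fold lower (1.78 to 2.02). Like Plin4 it was far lower in the refed state, 23.0-fold (19.5 to 27.3) between the control libraries. By FPKM, Fitm2 was 2.01-fold higher in the targeted fasted library, and Hilpda and G0s2 were 2.53-fold and 2.18-fold lower. In the refed libraries Fitm2, Hilpda and G0s2 stood at 5.78 and 6.36 TPM, 7.78 and 8.10 TPM, and 20.4 and 18.4 TPM in control and targeted liver.

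**Figure D3:**
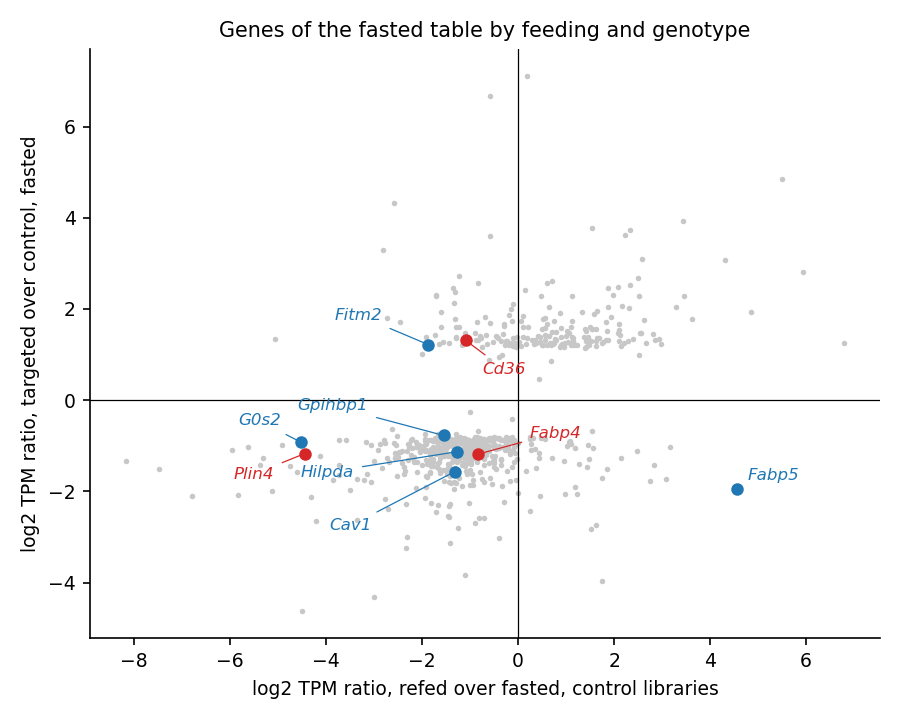
Each grey point is 1 of the 706 genes of the fasted table with TPM above 0 in the 3 libraries used. The x axis is the log2 TPM ratio of refed over fasted control liver and the y axis that of targeted over control fasted liver, with members in red and other listed genes in blue. Plin4 and G0s2 lie together at the far left below 0, Cd36 and Fitm2 lie above 0, and Fabp5 is the listed gene at the right. The band without points around 0 on the y axis reflects the authors' 2-fold limit.

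In the refed sheet 11 of the 91 genes are listed, 6 higher and 5 lower, where 78.2% of all genes are higher and 21.8% lower. Their median log2 ratio in the authors' deposited table was 1.11, beside 1.20 for the sheet. Pparg itself was at 3.16 TPM in control fasted, 5.22 TPM in targeted fasted, 2.40 TPM in control refed and 5.72 TPM in targeted refed liver, 2.38-fold higher (1.70 to 3.40) in the refed state. Its level was higher in the targeted library in both states, as for Cd36 and opposite to Plin4. Lpl, the lipase that frees fatty acids from lipoproteins, stood at 9.46 and 22.4 TPM, 2.37-fold higher (2.13 to 2.65). The list of 24 PPAR genes in liver has 5 entries in this sheet, 4 higher and 1 lower. With 78.2% of the whole sheet higher, nothing particular to PPAR genes is read from this count. Besides Pparg, the higher ones were the PPAR alpha targets Cyp4a14, Cyp4a31 and Acot1, and none of them is in the fasted sheet. Their refed levels were 3.66-fold (3.21 to 4.19), 3.86-fold and 2.17-fold higher in targeted than in control liver. The refed levels were far below the fasted ones, at 9.84 and 36.03, 0.73 and 2.82, and 3.05 and 6.61 TPM in control and targeted liver. In the fasted libraries the same genes stood at 3673.57 and 4604.35, 61.04 and 72.6, and 411.17 and 362.25 TPM in control and targeted liver. Fgf21, a hormone gene and also a PPAR alpha target, was the lower one, with 5.57 and 1.97 TPM in control and targeted refed liver. Gpat3, which starts glycerolipid synthesis, was 2.28-fold higher (1.48 to 3.60).

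Lower in the targeted refed library, beside Plin4, were Pnpla3, a droplet protein related to ATGL, at 96.5 and 35.5 TPM, and Abhd5, the coactivator of ATGL, at 54.4 and 21.1 TPM, 2.58-fold lower (2.38 to 2.81). Lpin1, a phosphatidate phosphatase, was 2.09-fold lower (1.96 to 2.23). By the deposited annotation, 7 genes of each sheet stand under the PPAR signaling pathway. Fasted, 4 were higher and 3 lower, in a sheet with 30.3% higher and 69.7% lower. Refed, 5 were higher and 2 lower, in a sheet with 78.2% higher and 21.8% lower. Plin4 and Cyp7a1 stand in both sheets, Plin4 lower and Cyp7a1 higher in both states. The genes under that heading, the members included, did not share 1 direction by genotype, and neither did either sheet as a whole.

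Markers of other cell types were set beside Fabp4, which fat cells, capillary endothelium and macrophages are known to express. Fabp4 was lowest in the targeted fasted library, and the summed endothelial and macrophage markers below in the control refed one. Of 17 endothelial markers, 14 are in the fasted sheet, all 14 lower in the targeted library, in a sheet where 69.7% are lower, and Lyve1 is in the refed sheet, higher. The 15 found in either sheet sum to 276 TPM in the control fasted, 135 TPM in the targeted fasted, 95.1 TPM in the control refed and 147 TPM in the targeted refed library. None of them is at 0 in any library, and all 15 have their highest level in the control fasted library, as do 48% of the 943 genes. The sum was 2.04-fold lower in the targeted fasted library, where Fabp4 was 2.27-fold lower, and 1.55-fold higher in the targeted refed library, where the Fabp4 ratio was 1.24. Between the control libraries the sum was 2.90-fold and Fabp4 1.79-fold lower after refeeding, and between the targeted libraries the sum was 1.09-fold and Fabp4 1.58-fold higher. These folds are by TPM only. The sum follows its abundant genes, such as Clec4g at 82.6 TPM in the control fasted library, and single markers differ. Between the targeted libraries they ranged from 1.38-fold lower for Lyve1 to 1.40-fold higher for Emcn after refeeding. Fabp4 amounted to 18.9%, 17.0%, 30.8% and 24.7% of the sum in the control fasted, targeted fasted, control refed and targeted refed libraries. Gpihbp1 is itself on the endothelial list. The macrophage markers Marco and Timd4, 2 of 13 listed, sum to 37.0, 14.1, 8.39 and 19.6 TPM in the same order of libraries. None of the other 8 adipocyte markers is in either sheet, and they were not analysed here. The part of these cells in the Fabp4 levels was not tested, and in tissue RNA fewer cells of a type and less RNA per cell cannot be told apart. Cd36 is also known in endothelium and macrophages. It was higher in the targeted fasted library, where these markers were lower. In the targeted refed library it was 1.50-fold higher, where the endothelial sum was 1.55-fold higher. After refeeding it was 2.13-fold lower between the control libraries, where the sum was 2.90-fold lower. Between the targeted libraries it was 3.53-fold lower, where the sum was 1.09-fold higher. The part of these cells in the Cd36 levels was not tested either.

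**Figure D4:**
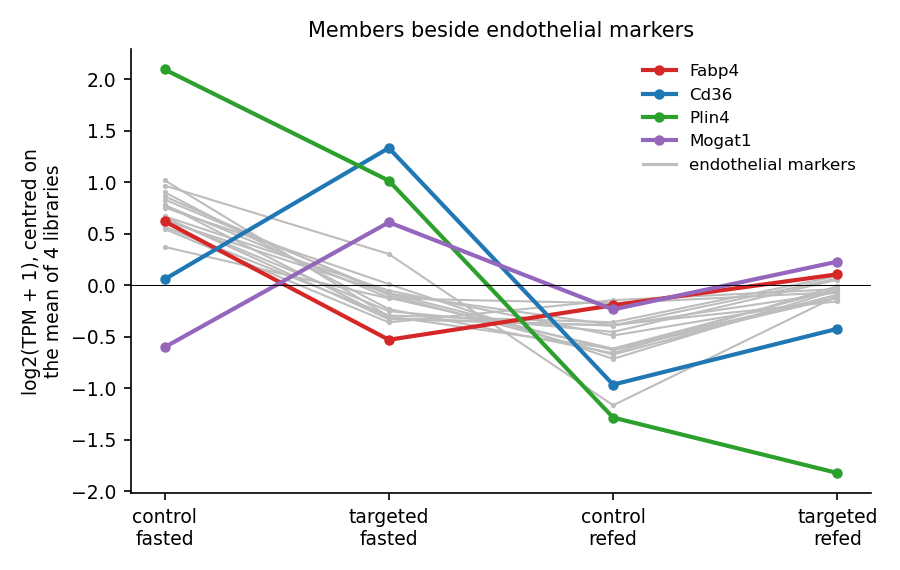
The log2(TPM + 1) of each member and of 15 endothelial markers (grey), centred on its mean over the 4 libraries (y axis), with lines that only join the 4 libraries. Fabp4 (red) is highest in the control fasted library, as are all 15 markers, and Cd36 (blue) peaks in the targeted fasted library.

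The genes of the sheets with the most similar pattern were found by the distance between these centred values over 4 libraries, among 870 other genes with at least 1 TPM in a library. With so few libraries many genes come close, and the ranking is a description. Nearest to Cd36 were Ildr2, Gna12 and Acss3, at distances of 0.19, 0.26 and 0.33 on the log2 scale. Ildr2 had 3.82, 9.03, 1.23 and 1.93 TPM in the control fasted, targeted fasted, control refed and targeted refed libraries. Nearest to Fabp4 were Lck, a kinase of T cells, Vim, the filament protein of mesenchymal and blood cells, and the cytokine gene Il1b, at 0.11, 0.12 and 0.13. Vim stood at 24.4, 10.7, 15.0 and 18.2 TPM in that order. Lck and Il1b are low, with 2.53 and 2.88 TPM at most, so the added 1 TPM flattens them, and without it they were 4.96-fold and 3.27-fold lower in the targeted fasted library, against 2.27-fold for Fabp4. Nearest to Mogat1 were Cyp2c54, Cyp2c50 and Fam210a, at 0.12, 0.12 and 0.13, a closeness that the added 1 TPM favours, since it flattens a gene as low as Mogat1. Nearest to Plin4 were Nnmt, a methyltransferase of nicotinamide, Gm826 and Ttll8, at 0.37, 0.44 and 0.53. Nnmt stood at 724, 364, 86.7 and 65.2 TPM, lower after refeeding and lower in targeted liver as Plin4 was, at a level far above it. The added 1 TPM also flattens refed Plin4. Without it Plin4 was 3.19-fold lower in the targeted refed library, against 1.33-fold for Nnmt. After refeeding in control liver Plin4 was 21.8-fold lower, against 8.36-fold for Nnmt.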

How the data were processed

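Liver RNA, isolated with TRIzol per the labels' protocols, was sequenced in 4 libraries. The authors deposited TPM and FPKM with 2 decimals, a log2 ratio and a p-value per gene for genotype and, in the fasted table, also for refed over fasted control liver, per the file headers. No aligner, counter, annotation, build or strandedness is named in the labels or the file headers (not given in the sources used here). The first sheets hold genes with an absolute genotype log2 ratio of at least 1 only. Absence from a sheet need not mean a smaller ratio. Mogat1, with a refed TPM ratio of 2.69 on few reads, is not in the refed sheet. The shorter second sheets list 3 members (Cd36, Fabp4, Mogat1) in the fasted table and none in the refed one, and were not used as evidence.

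The deposited p-values were matched to doubled Audic-Claverie tails of whole reads in 2 libraries, within a relative tolerance of 0.001. This gave reads for 80.6% of fasted, 71.8% of refed and 78.9% of control feeding ratios. Control fasted reads from 2 comparisons were the same in 557 of 557 genes. These p-values compare single libraries and were not used as tests. Targeted refed reads of Cd36, Fabp4 and Mogat1 were estimated as control refed reads times the FPKM ratio and the library ratio, a step added after seeing the data. In 125 genes with known reads and FPKM of at least 1 in both refed libraries, the estimate was 0.998 times the recovered number by median (5th to 95th percentile 0.971 to 1.03). Mogat1, with 0.24 FPKM in the control refed and 0.62 FPKM in the targeted refed library, is outside this check. Intervals are 95% Clopper-Pearson for ratios, moved to the TPM scale, Poisson for levels, and normal on the log scale for differences of ratios. They cover counting error only. The floor for a library at 0 is 3 reads. The read recovery was tested on simulated data. No test between groups was possible with 1 library each. Depths used genes with 1 GENCODE M21 transcript and FPKM of at least 1. Named genes are the 4 members, the listed pathway genes in the sheets, the 3 nearest genes per member and the targeted genes. Members and lists were chosen with earlier results of these data known. Python 3.11.15, scipy 1.17.1, pandas 2.3.3 and matplotlib 3.10.9 were used.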

Additional observations from a re-analysis of the deposited data

Results flagged for a closer look

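Genotype ratios of opposite sign in the fasted and refed state were found for 1 member and 6 other listed genes, on TPM and on FPKM. With 1 library per group these differences were not tested. The log2 ratio of TPM in the refed state minus that in the fasted state was 1.49 for Fabp4 (-1.19 fasted and 0.31 refed), 2.48 for Cav1, 1.49 for Gpihbp1 and 1.19 for Hilpda, each lower in the targeted fasted library. It was 1.51 for Gpat3, 1.30 for Acot1 and -1.60 for Abhd5, which are in the refed sheet only. All but Abhd5 were lower fasted and higher refed in the targeted library, as were 49.3% of the 943 genes, all 15 endothelial markers and both macrophage markers in the sheets, so nothing particular to these genes is read from it. The refed intervals of Fabp4 and Hilpda include no difference.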

How the results depend on the processing

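The members' ratios were recomputed with FPKM (not for fasted Mogat1, at 0 in control) and with a pseudocount of 1 TPM, and the genotype ratios in the sheets also from the authors' deposited log2 ratio and, except for Mogat1, from recovered reads. For Cd36 the fasted genotype log2 ratio of 1.31 became 1.11 with FPKM and 1.15 with the authors' ratio, which is that of the reads, and the targeted feeding ratio of -1.82 became -1.56 with FPKM. For Plin4 the fasted genotype ratio of -1.17 became -1.38 with FPKM and -1.36 with the authors' ratio and the reads. The pseudocount changed low values. For Plin4 the refed genotype ratio went from -1.67 to -0.54, the control and targeted feeding ratios from -4.45 and -4.95 to -3.38 and -2.84, and the refed minus fasted difference turned from -0.50 to 0.54, which follows from adding 1 TPM to refed levels of 0.83 and 0.26 TPM. For fasted Mogat1 the log2 ratio of 2.12 against the floor of 3 reads became 1.21 with the pseudocount and 10.34 in the authors' deposited table. The members' other ratios stayed within their counting intervals. The counts of listed genes stayed within 1.5 times under 2-fold limits by TPM and FPKM and under a minimum of 1 TPM. Leaving out a replicate could not be done with 1 library per group. No paired analysis was possible because each group has 1 library and no test was made. Depth limits Mogat1 most, at 0 to 13 reads.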
